A study of Mus musculus with 8 samples.

Results

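The genes described here carry or restrain WNT and R-spondin signals in the fetal ovary. They are the ligand genes Wnt4 and Wnt6, the R-spondin gene Rspo1 with the receptor gene Lgr5 and the ligase gene Znrf3, the transducer gene Ctnnb1 and its nuclear partner Lef1, and the target genes Axin2, Nkd1 and Sp5. These 10 genes were taken by symbol from the 25239 gene symbols counted. The rule set no threshold on their values, but the genes were chosen with earlier results of these data known. All 10 passed the filter on low counts.

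WNT proteins bind Frizzled and LRP receptors and keep β-catenin, the product of Ctnnb1, from being broken down by a complex built on Axin and APC. Stable β-catenin enters the nucleus and works with TCF and LEF factors on target genes, several of which encode inhibitors of the same pathway. R-spondins bind LGR receptors and remove the membrane ligases ZNRF3 and RNF43, which otherwise clear Frizzled from the cell surface. In the fetal mouse ovary, Rspo1 and Wnt4 act in the somatic supporting cells (pregranulosa cells) and are needed for normal ovarian differentiation.

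RNA-Seq was carried out on whole E14.5 ovaries of C57BL/6 mice, with 4 libraries of each genotype. Both groups were Bmpr1a fl/fl, and the knockouts (cKO) were in addition Oct4-Cre Cre/WT, which the controls were not. Oct4-Cre is a tamoxifen-inducible recombinase directed to germ cells, so the somatic cells of cKO ovaries keep the BMP receptor gene Bmpr1a. Dams were injected with 4-hydroxytamoxifen (1 mg) and progesterone (0.5 mg) on days 9.5, 10.5 and 11.5 after coitus, so embryos of both genotypes were exposed. Each library pooled 2 ovary pairs, and the 8 embryos of each genotype were littermates from 6 litters in all, whose assignment to libraries was not given in the sources used here.

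Library totals were 10622684 to 15365052 counts in control and 8562961 to 14887102 counts in cKO ovaries. Bmpr1a itself was 218 CPM in control and 194.6 CPM in cKO libraries on average (Log2FC -0.16 ± 0.064 SE, FDR = 0.069, edgeR). Germ cells are a part of each ovary and the count covers the whole gene, so that value does not check the labels. Values per library are given as CPM (the read count relative to the library total, with TMM factors), a unit that compares a gene between libraries and not genes with each other. Differences are Log2FC, the log2 ratio of cKO to control, with the FDR of the edgeR quasi-likelihood test adjusted over 14249 genes. A gene "rose" or "fell" where its FDR was below 0.05, and it was a DEG where its absolute Log2FC was also above 0.5.

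Of the 10 genes, 7 fell in cKO ovaries and 0 rose. Over all genes tested, 29.8% changed, 12.5% falling and 17.3% rising. The 7 were Wnt4, Wnt6, Rspo1, Lgr5, Znrf3, Axin2 and Nkd1, with changes from -28.2% to -16.9%, whereas Ctnnb1, Lef1 and Sp5 did not pass the test. None of the 10 reached the fold threshold (0 DEGs, where 10.2% of all genes were DEGs, 4.06% lower and 6.11% higher), and the edgeR likelihood ratio test, DESeq2 and limma-voom also gave 0. At an unadjusted p below 0.05, 7 of the 10 passed. The 4 cKO values lay below the 4 control values for 6 of the 10 genes (11.7% of all genes) and above them for 1 (16.1% of all genes; 27.9% in either direction). With libraries scaled to supporting cell markers in place of TMM, 1 of the 7 still fell. The median Log2FC of the 10 genes was -0.31, against -0.0042 for all genes tested. In RNA of whole ovaries, fewer cells of a type and less RNA per cell cannot be told apart.

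**Figure D1:**
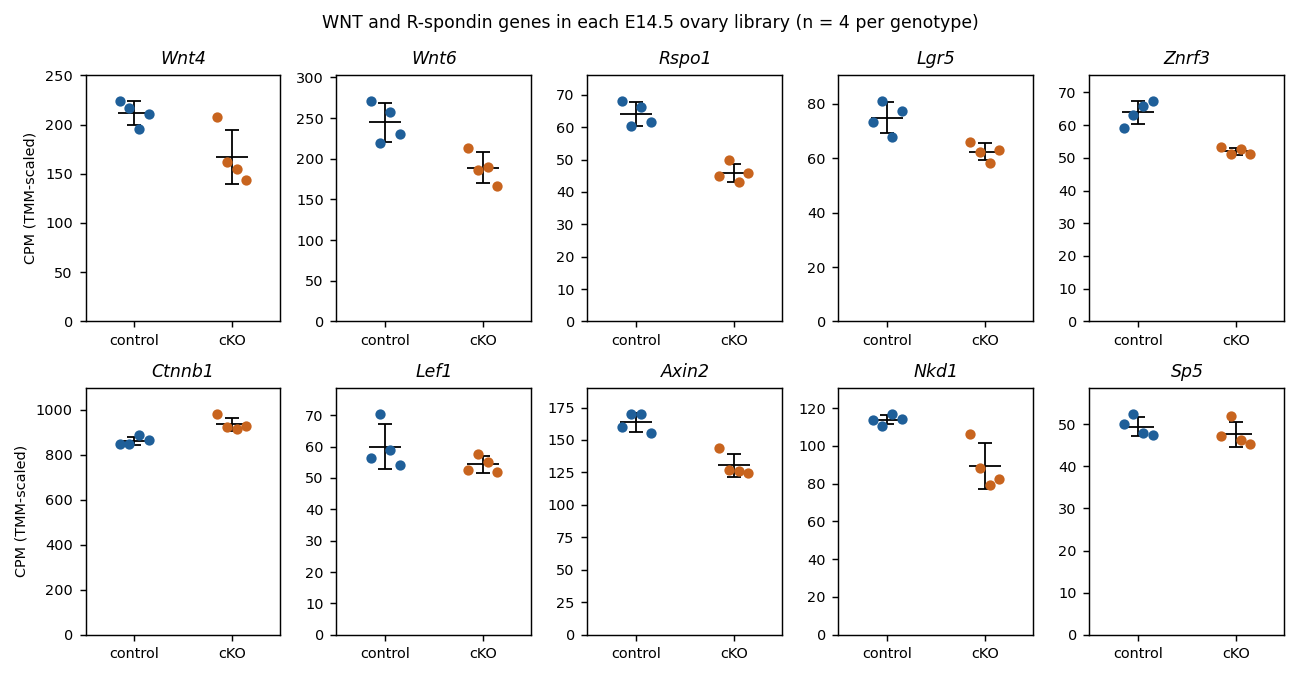
CPM (TMM-scaled, linear axis from 0) of each of the 10 genes in every library, with control in blue and cKO in orange; the long bar is the mean and the error bar the SD of 4 libraries. The cKO points lie below all control points for Wnt6, Rspo1, Lgr5, Znrf3, Axin2 and Nkd1, and above them for Ctnnb1.

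Per length of exon, Ctnnb1 was the most abundant of the 10 in control ovaries, at 166 ± 3.6 RPKM (SD, n = 4). Wnt6 followed at 112 ± 10.8 RPKM and Wnt4 at 50.5 ± 2.86 RPKM. Rspo1 stood at 33.1 ± 1.91 RPKM, Axin2 at 29.7 ± 1.31, Nkd1 at 24.97 ± 0.541 and Sp5 at 23.5 ± 1.08. The lowest levels were those of Znrf3 at 8.09 ± 0.45, Lgr5 at 7.30 ± 0.549 and Lef1 at 6.82 ± 0.817 RPKM. Control libraries of Nkd1 and Sp5 overlapped in RPKM, as did those of Znrf3, Lgr5 and Lef1, so their order within these sets is not beyond the spread. Among the 10 genes, Ctnnb1, Wnt4, Wnt6 and Rspo1 were thus measured at higher levels than Lgr5 and Znrf3. That order does not extend to every R-spondin receptor gene. Lgr4, outside the 10, averaged 55.88 RPKM in control ovaries, above Rspo1 and overlapping Wnt4 between libraries. The receptor gene Lgr6 and the ligase gene Rnf43 were low, at 0.4573 and 4.002 RPKM.

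The promoter windows of the 3 target genes are printed to show where they hold CTTTGA, a form of the core of the TCF and LEF motif. Each window is the 250 bases upstream of a RefSeq transcript start on the plus strand of GRCm38.p6 (the mm10 assembly), printed 5′ to 3′. Capitals mark CTTTGA or its reverse complement TCAAAG, and other forms of the core are not marked.
Axin2 chr11:108920099-108920348: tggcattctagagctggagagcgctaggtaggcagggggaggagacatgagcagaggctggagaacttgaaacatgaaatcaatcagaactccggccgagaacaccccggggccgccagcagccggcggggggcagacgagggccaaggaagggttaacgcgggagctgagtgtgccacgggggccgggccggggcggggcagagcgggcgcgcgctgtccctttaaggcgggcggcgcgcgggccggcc
Nkd1 chr8:88527383-88527632: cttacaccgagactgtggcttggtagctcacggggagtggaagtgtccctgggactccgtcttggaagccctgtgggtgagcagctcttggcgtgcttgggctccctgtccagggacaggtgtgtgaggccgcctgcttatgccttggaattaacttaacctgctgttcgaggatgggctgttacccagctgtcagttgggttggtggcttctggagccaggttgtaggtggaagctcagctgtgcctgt
Sp5 chr2:70474673-70474922: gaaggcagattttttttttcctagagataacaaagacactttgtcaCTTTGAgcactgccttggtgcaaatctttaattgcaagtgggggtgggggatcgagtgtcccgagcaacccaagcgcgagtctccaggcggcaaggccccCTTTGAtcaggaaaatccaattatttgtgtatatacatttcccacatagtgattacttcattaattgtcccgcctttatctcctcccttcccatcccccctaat
The Nkd1 window lies inside the longer GENCODE span of that gene. Sp5 held the word at -204 to -199 and at -104 to -99 from its start, and the later match also spelled the longer CTTTGAT. In the Axin2 and Nkd1 windows the 6 letters were not found. Of the 10 genes, 8 had a window in the RefSeq table (all but Lgr5 and Znrf3), giving 12 windows, and the only other match was in the most downstream of the 4 Lef1 windows (chr3:131156044-131156293, plus strand), at -180 to -175 and -120 to -115. Among all 32851 windows in the table, 13.8% held CTTTGA on either strand and 3.21% held CTTTGAT. A match to letters is a description and not a bound site, and binding was not measured. Other forms of the motif and sequence outside the windows were not searched, so a window without a match does not show a gene without sites.

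Both ligand genes fell (gene positions are those of GENCODE vM21 on mm10, plus strand unless stated). Wnt4 (chr4:137277489-137299726), the ligand needed in supporting cells, was measured at 224, 217, 196 and 210.3 CPM in control libraries 1 to 4. The cKO libraries gave 207, 162, 155 and 144 CPM. cKO library 1 lay within the control range and the other three below it. The decrease was 21.3% (Log2FC -0.35 ± 0.092 SE, FDR = 0.0104, edgeR), and without that library the Log2FC was -0.46. Wnt6 (chr1:74771892-74785322), which encodes another secreted WNT ligand, had 271, 219.8, 257 and 231 CPM in control and 213, 186, 189.6 and 166 CPM in cKO libraries. Its genotypes did not overlap, and it fell by 22.9% (Log2FC -0.38 ± 0.081 SE, FDR = 0.00263, edgeR).

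The R-spondin genes showed the largest decrease of the 10 in Rspo1 and smaller ones in Lgr5 and Znrf3. Rspo1 (chr4:124986430-125009099), which encodes the secreted R-spondin, had 68.1, 60.3, 66.3 and 61.7 CPM in control libraries and 44.8, 49.75, 43.0 and 45.9 CPM in cKO libraries. The gap between the lowest control and the highest cKO library was wider than the range within either genotype. Rspo1 fell by 28.2% (Log2FC -0.48 ± 0.069 SE, FDR = 0.000112, edgeR). Lgr5 (chr10:115450311-115587780, minus strand) encodes an R-spondin receptor found on surface epithelium and on early pregranulosa cells. Its values were 73.4, 81.0, 67.9 and 77.4 CPM in control and 65.9, 62.2, 58.4 and 62.8 CPM in cKO libraries. The genotypes were separated by a narrow margin, and Lgr5 fell by 16.9% (Log2FC -0.27 ± 0.068 SE, FDR = 0.00837, edgeR). Znrf3 (chr11:5276324-5444847, minus strand), the ligase that R-spondins remove and itself a WNT target, had 59.2, 63.1, 65.75 and 67.3 CPM in control libraries and 53.3, 51.0, 52.55 and 51.2 CPM in cKO libraries. All cKO values of Znrf3 were low and close together, and it fell by 18.6% (Log2FC -0.30 ± 0.063 SE, FDR = 0.00238, edgeR).

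The transducer and its nuclear partner did not pass the test. Ctnnb1 (chr9:120929216-120960507) had 848, 847, 887 and 865 CPM in control and 979, 921, 912 and 926 CPM in cKO libraries. All cKO libraries were above all controls, yet the difference was small (Log2FC 0.12 ± 0.055 SE, FDR = 0.129, edgeR) and changed sign when libraries were scaled to germ cell markers (-0.098). Lef1 (chr3:131110471-131224356), which encodes a DNA-binding partner of β-catenin, had 56.4, 70.3, 59 and 54.15 CPM in control and 52.5, 57.8, 55.0 and 52.1 CPM in cKO libraries. The genotypes overlapped, with control library 2 highest (Log2FC -0.14 ± 0.081 SE, 95% interval -0.31 to 0.033, FDR = 0.22, edgeR), without that library the Log2FC was -0.063, and under supporting cell marker scaling it was 0.069. An exon of each of Ctnnb1 (Ulk4), Lef1 (Gm43352) and Axin2 (Gm11670) overlaps a gene on the opposite strand, and the strand setting of the counting was not given in the sources used here. The microRNA gene Mir7090 lies on the same strand within Ctnnb1.

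Of the target genes, Axin2 and Nkd1 fell and Sp5 did not pass the test. Axin2 (chr11:108920349-108950783), which encodes a scaffold of the complex that breaks down β-catenin, had 160, 169.8, 169.7 and 155 CPM in control and 144, 127, 126 and 125 CPM in cKO libraries. The genotypes did not overlap, and cKO library 1 stood above the other three. Axin2 fell by 20.4% (Log2FC -0.33 ± 0.062 SE, FDR = 0.000992, edgeR). Nkd1 (chr8:88521354-88594884), whose product binds Dishevelled and restrains the pathway, had 114, 111, 117 and 114 CPM in control and 106, 88.5, 79.2 and 82.7 CPM in cKO libraries. Control values of Nkd1 were tightly grouped, and cKO library 1 was again nearest to them. Nkd1 fell by 21.9% (Log2FC -0.36 ± 0.078 SE, FDR = 0.00307, edgeR). Sp5 (chr2:70474923-70477729), a zinc-finger factor gene with the motif words printed above, had 50.1, 52.3, 47.95 and 47.3 CPM in control and 47.1, 52.0, 46.2 and 45.2 CPM in cKO libraries. The genotypes overlapped over nearly the whole range (Log2FC -0.052 ± 0.069 SE, 95% interval -0.20 to 0.094, FDR = 0.617, edgeR), and the value was 0.15 under supporting cell marker scaling.

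The same cKO library, number 1, was the highest of its genotype for 6 of the 7 genes that fell, Rspo1 being the exception. It also had the highest summed supporting cell markers among cKO libraries, without Wnt4 and Rspo1 (2038 CPM, the others 1763 to 1871), and the lowest summed germ cell markers (738 CPM, the others 986 to 1146). Supporting cells were not alone in this. Sums of stroma (3372 CPM, the others 2731 to 3083), endothelium (321.8 CPM, the others 279.7 to 302.4), steroidogenic, mesonephros, surface epithelium (with Lgr5) and erythroid markers were also highest in cKO library 1. Sertoli cell markers were lowest there, and macrophage markers were not highest. All 7 genes passed the test with each of the 8 libraries left out in turn.

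The cell type markers moved too. For comparison, 12.5% of all genes tested fell and 17.3% rose, so 1 or 2 calls in a short list say little. The supporting cell markers without Wnt4 and Rspo1 held Foxl2, Fst, Irx3, Kitl, Wt1, Gata4, Nr5a1, Lhx9 and Runx1. Of these 9 genes, 6 fell and 0 rose, with a median Log2FC of -0.28 and summed levels of 1974 to 2319 CPM in control and 1763 to 2038 CPM in cKO libraries. Germ cell markers split, with 4 of 10 higher, 3 lower and 3 not passing, and their sums overlapped (722 to 970.1 CPM in control, 738 to 1146 CPM in cKO). Of the 5 surface epithelium markers tested, Lgr5 itself was the only one that fell and none rose. Gng13 of that list narrowly missed the threshold (Log2FC -0.32, FDR = 0.0508, edgeR), with all cKO libraries below all controls. Macrophage markers rose for 5 of 7 tested, with sums of 32.4 to 41.0 CPM in control and 45.5 to 60.2 CPM in cKO. Among the remaining lists, 2 of 9 stroma markers rose, and 2 of 7 Sertoli cell, 1 of 5 steroidogenic and 1 of 5 mesonephros markers fell. The 7 endothelium markers did not pass, and 4 haemoglobin genes of the erythroid list were listed at 0 in every library. The part of these cell types in the differences of the WNT genes was not tested.

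Scaling set how many of the 7 decreases were called. Under TMM, the median Log2FC of all genes was near 0. Scaling to the germ cell markers moved that median to -0.24, and 6 of the 10 genes fell, all 6 as DEGs, while Lgr5 no longer passed (Log2FC -0.49, FDR = 0.0601, edgeR). Over all 14249 genes, 1331 were lower DEGs under that scaling. Scaling to supporting cell markers moved the median to 0.20, and only Rspo1 still fell (Log2FC -0.28, FDR = 0.0392, edgeR), while Ctnnb1 rose (Log2FC 0.32, FDR = 0.00694, edgeR). A change of scaling moves every gene by nearly the same amount, so values relative to the median of all genes stay near their TMM values by construction and say nothing of stability. On that relative scale, Wnt4 lay at -0.34 under TMM, -0.30 under germ cell scaling and -0.35 under supporting cell scaling, Rspo1 at -0.47, -0.48 and -0.48, Axin2 at -0.32, -0.30 and -0.33, and Ctnnb1 at 0.12, 0.14 and 0.11.

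**Figure D2:**
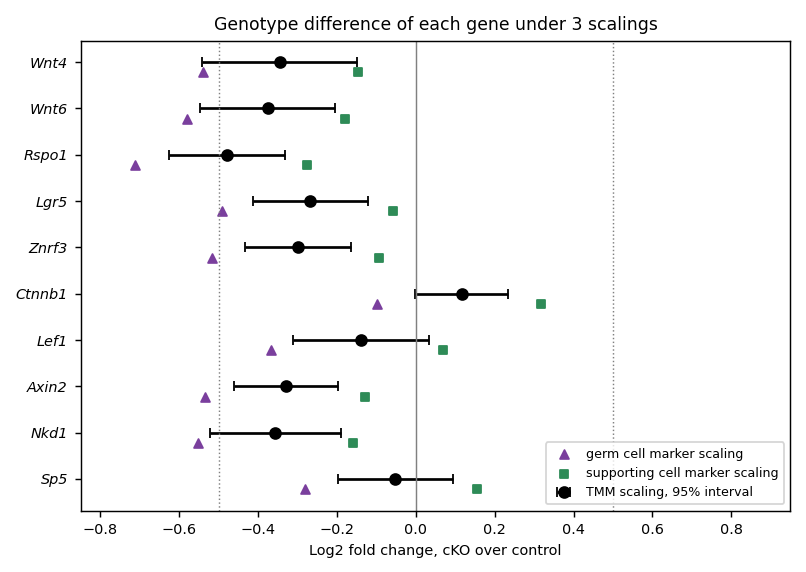
Log2FC (cKO over control) of each gene, with the TMM value and its 95% interval in black, the value under germ cell marker scaling as triangles and under supporting cell marker scaling as squares; dotted lines mark the fold threshold of 0.5. Germ cell scaling puts all 10 genes to the left of 0, and supporting cell scaling puts Ctnnb1, Lef1 and Sp5 to the right.

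Ratios of genes within a library do not depend on any scaling. Over 8 pairs with related roles, chosen after the values were known, the log2 ratio of Axin2 to Sp5 was 1.73 ± 0.0656 in control and 1.45 ± 0.133 in cKO libraries (SD, n = 4), the only pair whose genotypes did not overlap (two-sided exact permutation test, p = 0.0286, the smallest that 70 arrangements allow; adjusted over the 8 pairs, p = 0.137). The ratio of Nkd1 to Sp5 was lower by a log2 difference of -0.31 (exact permutation p = 0.0571, adjusted p = 0.137), and that of Ctnnb1 to Lef1 higher by 0.25 (exact permutation p = 0.0571, adjusted p = 0.137). Rspo1 relative to Lgr5 and to Znrf3 differed by -0.22 and -0.19 (exact permutation p = 0.0857 for each, adjusted p = 0.137). The ratios Wnt4 to Wnt6, Lgr5 to Znrf3 and Axin2 to Nkd1 differed by 0.020, 0.030 and 0.032 (exact permutation p = 0.886, 0.714 and 0.686). With the adjustment, 0 of the 8 passed. In a design of this size a single separated pair cannot pass that adjustment, so the ratios show neither that the genes of a pair differ in response nor that they act alike.

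**Figure D3:**
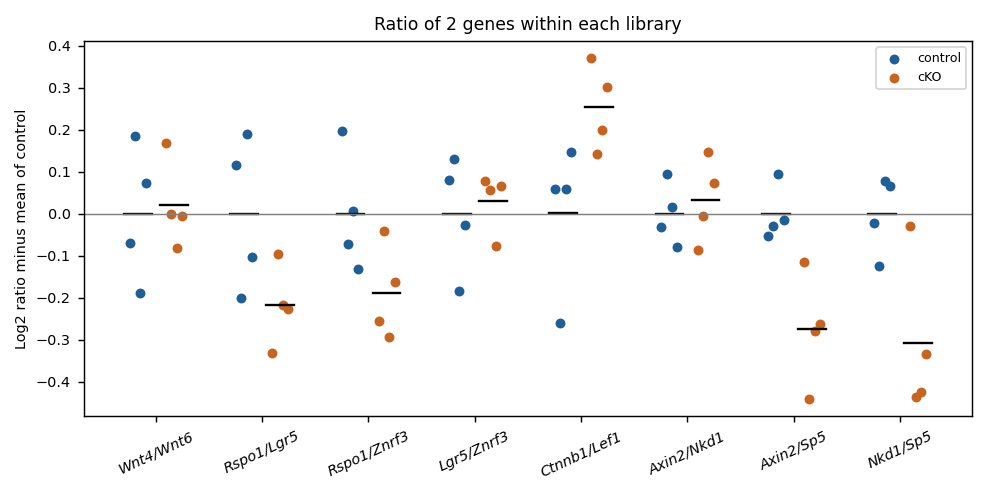
Log2 ratio of 2 genes in each library, minus the mean of the control libraries (linear axis), with control in blue, cKO in orange and bars at the genotype means. Only for Axin2/Sp5 do all cKO points lie below all control points.

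Beyond the 10 genes, 117 other WNT pathway genes were listed by role, and 96 of them passed the filter on low counts. Of these 96, 20 fell and 11 rose, with a median Log2FC of -0.080, and 11 were DEGs (5 lower, 6 higher). The shares that changed in either direction and that were DEGs were close to those of all genes (29.8% and 10.2%). By direction, 12.5% of all genes fell and 17.3% rose, so the share that fell was higher among the 96 and the share that rose lower. The lists overlap, so the counts by role below include a gene under each role it holds and include the genes described above. The other 21 of the 117, among them 12 WNT ligand genes, Rspo2 and T, had too few counts to test.

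Among the 7 ligand genes tested, 4 fell and 0 rose, with a median Log2FC of -0.25. They were Wnt4 and Wnt6, described above, with Wnt9a and Wnt5b. Of all genes tested, 12.5% fell and 17.3% rose, shares that also stand beside the R-spondin counts below. Porcn, whose product adds the lipid that WNT proteins need for secretion, fell from 19.8 ± 5.05 to 10.6 ± 2.12 CPM (SD, n = 4; Log2FC -0.86 ± 0.165 SE, FDR = 0.00109, edgeR). Wls, the WNT transport receptor gene, had a Log2FC of -0.052 (FDR = 0.634, edgeR). Of the R-spondins and their receptors, 3 of 8 fell, all described above, and Rspo4 rose from 0.845 ± 0.245 to 1.72 ± 0.365 CPM (Log2FC 1.05 ± 0.278 SE, FDR = 0.0104, edgeR). Rspo4 rests on 6 to 13 counts per control library and 10 to 26 per cKO library, and it did not pass under germ cell marker scaling (FDR = 0.128, edgeR). Rspo3, Lgr4, Lgr6 and Rnf43 had Log2FC of -0.30, -0.15, -0.16 and -0.14 and did not pass (FDR = 0.342, 0.0976, 0.578 and 0.485, edgeR).

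Receptor genes and inhibitors moved in both directions. For every count in this paragraph, the shares over all genes tested were 17.3% rising and 12.5% falling. Among 16 receptor genes 2 rose and 2 fell, a share no higher than the 29.8% of all genes, and the only DEG was Fzd6, a Frizzled gene, which rose from 10.9 ± 1.98 to 15.9 ± 2.38 CPM with overlapping genotypes (Log2FC 0.56 ± 0.136 SE, FDR = 0.00581, edgeR; under germ cell marker scaling FDR = 0.301). Among 12 extracellular inhibitor genes 2 rose and 3 fell. Sfrp2, a secreted protein that binds WNTs, rose from 29.5 ± 2.09 to 50.6 ± 6.89 CPM (Log2FC 0.78 ± 0.0941 SE), and Kremen2, a receptor of the DKK inhibitors, rose from 0.697 ± 0.107 to 1.38 ± 0.159 CPM, at a median of 10.5 counts, a call that ended with DESeq2 (FDR = 0.0619) and under germ cell marker scaling (FDR = 0.201, edgeR). Notum, an enzyme that removes the WNT lipid and a target gene itself, fell from 14.02 ± 2.59 to 8.45 ± 0.675 CPM (Log2FC -0.73 ± 0.133 SE), and Apcdd1, a membrane inhibitor, fell from 35.2 ± 1.23 to 24.1 ± 1.84 CPM (Log2FC -0.55 ± 0.0755 SE). Of 23 cytoplasmic transducer genes 5 rose and 5 fell, with a median Log2FC of 0.014, and the DEG among them was Frat2, an inhibitor of GSK3, which rose from 5.62 ± 0.827 to 9.42 ± 0.453 CPM but did not pass under germ cell marker scaling (FDR = 0.121, edgeR). Nuclear factors were mostly level, 1 of 14 falling (Bcl9l), as were planar polarity genes, 1 of 10 falling (Celsr2).

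The target list leaned downwards. Of 19 canonical target genes tested, 9 fell, 1 rose and 9 did not pass, with a median Log2FC of -0.27. Over all genes tested, 12.5% fell and 17.3% rose. The 9 include Axin2, Nkd1, Lgr5 and Znrf3, so the count restates in part the decreases described above. Ccnd1, which encodes cyclin D1, fell from 81.8 ± 10.1 to 46.5 ± 1.81 CPM (Log2FC -0.81 ± 0.0822 SE). The study reported Ccnd1 as dependent on BMP signalling and cited its rise in early meiotic germ cells. Which cells lie behind the decrease in whole ovaries was not tested. Ascl2, a transcription factor gene, rose from 1.28 ± 0.633 to 2.45 ± 0.404 CPM with overlapping genotypes, and it no longer passed without control library 4 (Log2FC 0.74, FDR = 0.0755, edgeR) or without cKO library 4 (Log2FC 0.88, FDR = 0.069, edgeR), nor under germ cell marker scaling (FDR = 0.108, edgeR).

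Ovarian genes described as downstream of Wnt4 or Rspo1 made up the last list, and 5 of its 6 members fell while 0 rose, with a median Log2FC of -0.37. Over all genes tested, 12.5% fell. Whether these 6 genes depend on Wnt4 or Rspo1 in these ovaries was not tested. Foxl2, the pregranulosa transcription factor gene, fell from 118 ± 3.93 to 79.4 ± 7.30 CPM (Log2FC -0.57 ± 0.0674 SE) and was the DEG of the list. Irx3 and Irx5, homeobox genes of the same cells, fell with Log2FC of -0.46 ± 0.0969 and -0.40 ± 0.119 SE. Bmp2, a BMP ligand gene, fell from 52.6 ± 2.24 to 41.6 ± 4.22 CPM, and Fst, which encodes the activin-binding protein follistatin, fell from 177 ± 13.6 to 142 ± 11.1 CPM. Nr0b1 had a Log2FC of -0.30 ± 0.121 SE and did not pass (FDR = 0.0741, edgeR). Foxl2, Fst and Irx3 also belong to the supporting cell markers above, of which 6 of 9 fell. Foxl2, Fst, Irx3, Gng13, Ccnd1, Sfrp2, Notum, Fzd6, Kremen2 and Rspo3 each share exon sequence with a gene on the opposite strand.

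**Figure D4:**
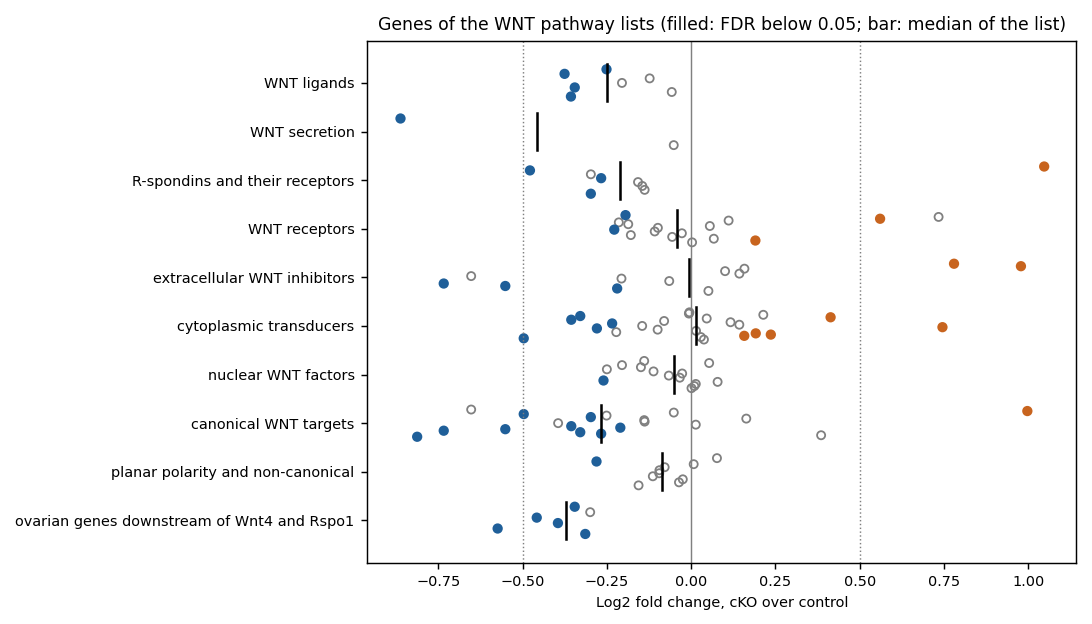
Log2FC (cKO over control) of every tested gene of the WNT pathway lists by role; filled points passed the test (FDR below 0.05, blue lower and orange higher), open points did not, and the black bar is the median of the list. Filled points are all to the left of 0 for ligands and for the ovarian genes downstream of Wnt4 and Rspo1, and lie on both sides for receptors, inhibitors and cytoplasmic transducers.

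Outside the pathway lists, the genes whose log2 CPM most resembled each of the 7 genes that fell were found by Pearson's r over the 8 libraries after subtracting the genotype means. They are the top of all genes tested outside those lists, ranked over few libraries. They were Ctdsp1 (0.991) and Angptl2 (0.984) for Wnt4, Hgfac (0.995) and Adck5 (0.977) for Wnt6, and Rbm28 (0.953) and Pusl1 (0.941) for Rspo1. Lgr5 was most like Ldb2 (0.98) and Cdip1 (0.975), Znrf3 most like Cacna1a (0.974) and Ino80dos (0.969), Axin2 most like C87436 (0.996) and Slc20a2 (0.991), and Nkd1 most like Evc2 (0.995) and Ncdn (0.986). Between the genes themselves, Nkd1 varied with Ctnnb1 (0.864), Wnt4 (0.831) and Axin2 (0.772). Rspo1 had no value above 0.374 with any of them, and its largest in size was negative, with Znrf3 (-0.512). The libraries share depth and cell makeup, so these values describe the libraries and carry no test.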

How the data were processed

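Whole E14.5 ovaries were profiled by stranded RNA-Seq in 4 control and 4 cKO pools. Per the methods and the submitters' processing notes, the authors trimmed reads with Trimmomatic 0.39 and mapped them with STAR 2.5.2 to mm10. The authors deposited whole-number counts per gene symbol, without normalization. The annotation and strand setting of the counting are not given in the sources used here. The authors' table of normalized values was not used.

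Counts were analysed in R 4.3.3 with edgeR 4.0.16 (filterByExpr, TMM, quasi-likelihood F test of genotype, Benjamini-Hochberg adjustment over all genes tested), with limma 3.58.1 and DESeq2 1.42.0 as alternatives. The procedure was tested on simulated data. DEG thresholds were those of the study (absolute Log2FC above 0.5, FDR below 0.05). RPKM used the union of GENCODE vM21 exons. Promoters came from RefSeq. Samples were grouped by the genotype in the labels and none was left out. The libraries are separate pools, and p-values measure the spread between pools, some of which may share a litter.

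The genes, lists and markers were chosen with earlier results of these data known. Named genes were the 10 genes, every pathway DEG, the tested genes of the R-spondin list and of the list downstream of Wnt4 and Rspo1, and the 2 genes most like each gene that fell. Wnt5b, Wnt9a, Wls, Bcl9l, Celsr2 and Gng13 were named after their values were seen. Ratios and 1 scaling were also added after the data were seen. Other alternatives were RLE, library size and marker scaling, other filters, the fit without Rn45s, a replicate block, and each library left out.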

Additional observations from a re-analysis of the deposited data

Results flagged for a closer look

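In 30 genes, each genotype was tested for a library apart from the other three by Dixon's criterion at 4 samples, which chance meets in about 1 of 20 groups. Of the 60 gene and genotype groups, 5 met it. Axin2 was 143.9 CPM in cKO library 1, the next being 126.8 CPM. Irx5 was highest in the same library, at 7.75 CPM against 6.47 CPM for the next. Porcn was 27.35 CPM in control library 3, the next being 17.62 CPM, and its Log2FC stayed between -0.99 and -0.69 with any 1 library left out. Ccnd1 was 49.2 CPM in cKO library 3, the next being 45.66 CPM. Rspo3 was lowest in cKO library 3, at 1.152 CPM against 1.908 CPM.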

How the results depend on the processing

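With RLE or library size scaling, no filter or a stricter one, the likelihood ratio test, DESeq2, limma-voom, or Rn45s left out, the same 7 genes fell. Scaling to markers changed the counts. Over all genes, 871 DEGs were higher and 578 lower under TMM (1449 in all), 400 and 1331 under germ cell marker scaling, and 1951 and 287 (2238 in all) under supporting cell marker scaling. Germ cell scaling made 6 of the 10 genes DEGs, gave 19 pathway DEGs in place of 11, and counted 19 pathway genes with an FDR below 0.05 in place of 38. There Ctnnb1 turned to a Log2FC of -0.098, and Rspo4, Fzd6, Kremen2, Frat2 and Ascl2 no longer passed. Under supporting cell scaling 2 of the 10 genes passed (Rspo1 and Ctnnb1), and Lef1 and Sp5 turned to 0.069 and 0.15. That scaling without Foxl2 and Irx3, added after the data were seen, also gave 2 of the 10 and 22 pathway genes, with Lef1 at 0.026 and Sp5 at 0.11. Since Foxl2 and Irx3 differ between the genotypes, a scaling on such markers takes up a part of the difference by construction. Germ cell markers differed too, with 4 of 10 higher and 3 lower under TMM, so scaling to them is not free of the genotype difference either. Library size alone made 1 gene, Rspo1, a DEG. With each library left out in turn, 0 to 1 of the 10 genes was a DEG (Rspo1, without control library 2 or 4 or cKO library 2), and the largest FDR of the 7 genes was 0.0417 (Wnt4, without cKO library 3). The log2 ratio differences then ran from -0.042 to 0.082 for Wnt4 to Wnt6, from -0.031 to 0.074 for Lgr5 to Znrf3 and from -0.0065 to 0.071 for Axin2 to Nkd1. Kremen2 had an FDR of 0.0619 with DESeq2.

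Libraries with the same replicate number are not described as pairs. Their deviations correlated at 0.198, 0.161, 0.108 and -0.0871, and 2 of 4 control libraries correlated best with their own number. With the litters of the libraries not given, these values neither show nor exclude a shared litter. With the replicate number as a block, 875 DEGs were higher and 582 lower, and the same 7 of the 10 genes fell. The FDR of Wnt4 was then 0.00089 in place of 0.0104, and that of Rspo1 0.000113 in place of 0.000112 (edgeR). Genes at few counts, such as Rspo4, Kremen2 and Ascl2, are the least precise.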
